A study of Rattus rattus with 8 samples.

Results

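The 10 genes described here carry signals of the hair cycle, and their RNA was measured in whisker follicles of rats after a simulated blast. They were chosen by name, for their known part in hedgehog, Wnt, BMP and FGF signalling in the follicle: Shh, Ptch1, Wnt5a, Ctnnb1, Lef1, Bmp2, Bmp4, Fst, Fgf5 and Fgf7. These 10 genes had 12 probes among the 30367 non-control probes of the array, and each was found by its transcript accession.

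The study asked whether hair follicles carry a trace of a blast to the head. Adult male Sprague-Dawley rats under isoflurane either were placed without a shock wave (sham, 0 kPa, 3 rats, C1, C2 and C3) or had 1 shock wave to the head (blast, 5 rats). The blast rats were M2 and M3 at 145 kPa (21.03 psi), H1 at 175 kPa (25.4 psi) and XH1 and XH3 at 200 kPa (29 psi). Whisker follicles were pooled within each rat and read on 1 array per rat, so the rats are the replicates. The time from blast to collection, 1 or 7 days, is not given rat by rat and enters no comparison. The labels name the organism as Rattus rattus, whereas the study's text gives Rattus norvegicus.

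A follicle passes through growth (anagen), regression (catagen) and rest (telogen), and signals between the epithelium and the dermal papilla set the timing. Hedgehog and Wnt signals drive growth, BMP signals hold stem cells at rest and take part in shaft differentiation, and their inhibitors lift that hold. Among the fibroblast growth factors, FGF5 ends growth and FGF7 acts from the papilla on the epithelium.

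All 8 arrays lay on 1 slide, in 2 rows of 4. The median processed signal was 281 in C1, 90.9 in C2 and 106 in C3. Among the blast rats it was 180 in M2, 93.3 in M3, 142 in H1, 114 in XH1 and 117 in XH3. C1 thus had the brightest array before normalization, and C2 the dimmest. Between 65.9% of spots (M3) and 73.0% (C1) were well above background. Levels below are log2 intensities after quantile normalization. Intensities of different probes are not set against each other.

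None of the 10 genes passed the test between blast and sham. At an unadjusted limma p under 0.05 there were 0 of 10, where 2.80% of all probes (850 of 30366) were called, 358 higher and 492 lower in blast. That count of probes was 1649 without H1 and 2246 with array weights. After adjustment over all 30366 probes there were 0 of 10 and 0% of all probes, and the smallest adjusted p over all probes was 0.541. In 0 of 10 genes did all blast rats lie on one side of all sham rats, which held for 2.0% of probes (605 of 30217). By their means 6 genes were higher and 4 lower in blast, a tally that includes Fgf7, which was above background on no array. In 5 of the 10 genes (Wnt5a, Lef1, Bmp4, Fgf5 and Fgf7) the sign turned with 1 rat left out, with values from -0.36 to 0.25 log2 over these genes. The median log2 fold change of all 10 genes was 0.07, beside 0.0045 over all probes. The exact permutation test has 56 ways to part the rats, and the smallest p it can give is 0.0179. Within the 2 rows of the slide, with 2 sham and 2 blast rats in row 1 and 1 sham and 3 blast rats in row 2, the difference had opposite signs in 5 genes. These were Ptch1 (-0.19 and 0.33 log2), Wnt5a (-0.17 and 0.17), Bmp2 (-0.40 and 0.20), Bmp4 (0.44 and -0.19) and Fgf7 (-0.060 and 0.20). The share of all probes was not counted for these signs, nor for the signs with 1 rat left out. In pooled follicles, fewer cells of a type and less RNA per cell cannot be told apart.

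**Figure D1:**
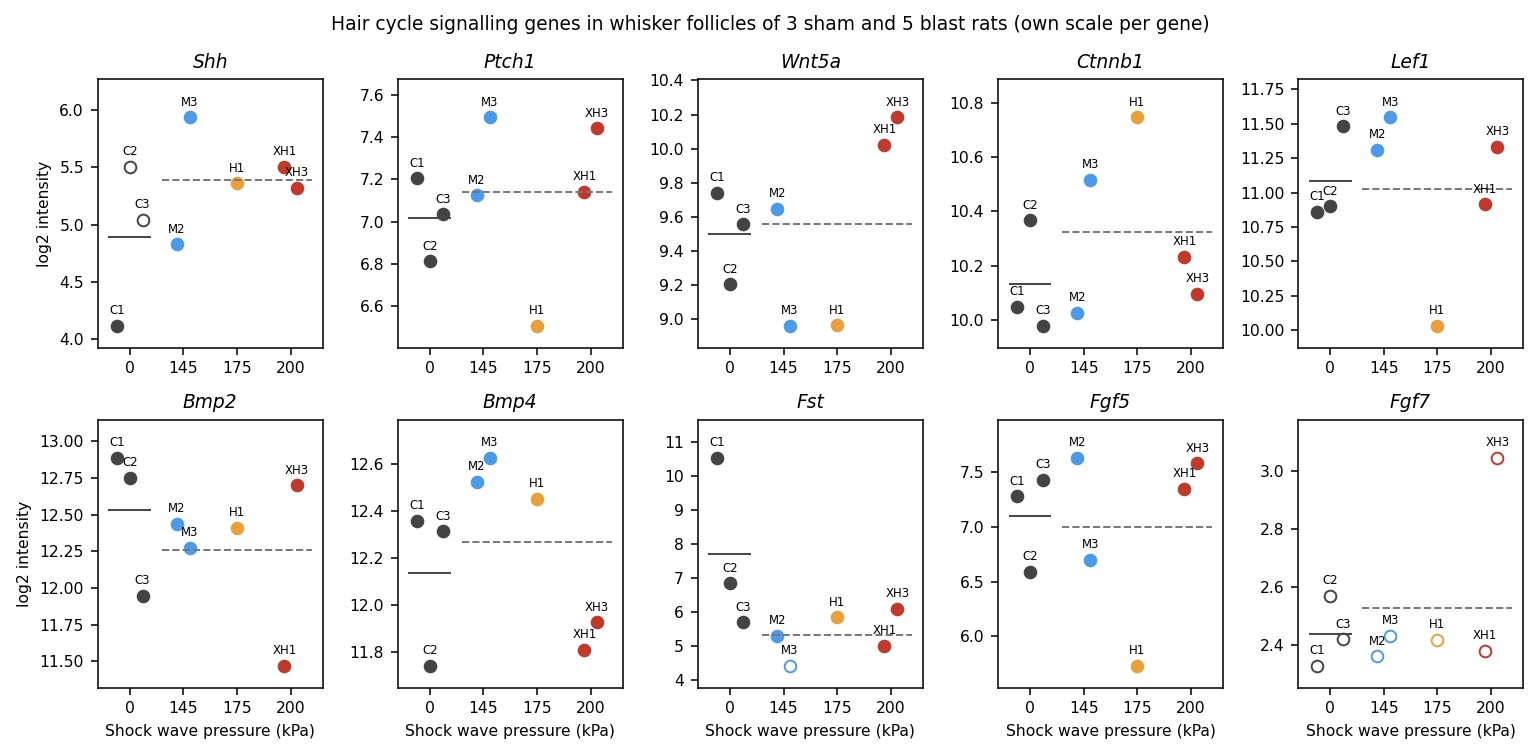
Log2 intensity of each gene (vertical axis, own scale per gene) by shock wave pressure in kPa (horizontal axis, not to scale), 1 point per rat; open points had at least 1 spot not well above background, and the lines are the sham mean (solid, n = 3) and the blast mean (dashed, n = 5). Fst stands at 10.54 in sham rat C1 and between 4.40 and 6.84 in the other rats, and Bmp4 is lower at 200 kPa (11.81 and 11.93) than at 145 kPa (12.53 and 12.63).

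Shh (NM_017221), the hedgehog ligand made by the matrix epithelium, was near the detection limit. Its log2 intensity was 4.12 in C1, 5.51 in C2 and 5.04 in C3, and 4.83 in M2, 5.94 in M3, 5.36 in H1, 5.50 in XH1 and 5.32 in XH3. The groups overlapped, and the order of the rats is not read here because of the spots described below. The mean was 4.89 ± 0.71 (SD, n = 3) in sham and 5.39 ± 0.40 (SD, n = 5) in blast. The difference was 0.50 on the log2 scale (SE 0.35, 95% interval -0.32 to 1.33, limma p = 0.196, exact permutation p = 0.268). It was 0.12 without C1, 0.81 without C2 and 0.18 with normexp background. Both spots were well above background on 6 of 8 arrays, C2 and C3 being the exceptions. The pair of spots on an array differed by a median of 0.90 log2 and by 1.55 in M3, so the disagreement between spots was larger than the difference between groups.

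Ptch1 (NM_053566) encodes the hedgehog receptor and is itself a target of the pathway. Its level was 7.21 in C1, 6.81 in C2 and 7.03 in C3, and 7.12 in M2, 7.50 in M3, 6.51 in H1, 7.14 in XH1 and 7.44 in XH3. The sham rats lay inside the span of the blast rats, with H1 below and M3 and XH3 above all 3 of them. Blast minus sham was 0.12 log2 (95% interval -0.44 to 0.69, limma p = 0.619, exact permutation p = 0.607). It was 0.022 without C2, 0.036 without M3, 0.050 without XH3, 0.22 without C1 and 0.28 without H1, and 0.029 with slide row as a block.

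Wnt5a (NM_022631), a ligand that signals mostly without beta-catenin and is made in the dermal papilla, was spread widely among the blast rats. Sham rats had 9.74 (C1), 9.21 (C2) and 9.56 (C3), and blast rats 9.65 (M2), 8.96 (M3), 8.97 (H1), 10.02 (XH1) and 10.18 (XH3). Both rats at 200 kPa were above all sham rats, and M3 and H1 were below all of them, so the group means of 9.50 ± 0.27 (SD, n = 3) and 9.56 ± 0.57 (SD, n = 5) nearly coincide. Blast minus sham was 0.06 log2 (95% interval -0.73 to 0.84, limma p = 0.871, exact permutation p = 0.875). It was 0.34 with array weights and -0.023 with slide row as a block, and ran from -0.10 to 0.20 with each rat left out. By pressure the mean was 9.31 at 145 kPa, 8.97 in the rat at 175 kPa and 10.10 at 200 kPa.

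Ctnnb1 (NM_053357) encodes beta-catenin, which carries the canonical Wnt signal to the nucleus. It stood at 10.05 in C1, 10.37 in C2 and 9.98 in C3, and at 10.03 in M2, 10.52 in M3, 10.75 in H1, 10.23 in XH1 and 10.10 in XH3. H1 and M3 exceeded all sham rats, while the other blast rats lay among them. The difference was 0.19 log2 (95% interval -0.27 to 0.66, limma p = 0.365, exact permutation p = 0.393). It was 0.087 without H1, 0.12 without C3 and 0.31 without C2.

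Lef1 (NM_130429), the transcription factor through which beta-catenin acts in the hair matrix, was read by 2 probes. The brighter one has 1 spot per array and the dimmer one 2. On the brighter one the levels were 10.86 (C1), 10.90 (C2), 11.48 (C3), 11.31 (M2), 11.55 (M3), 10.03 (H1), 10.91 (XH1) and 11.33 (XH3). H1 was lowest and M3 highest of the 8 rats, and the other 3 blast rats lay within the sham span. Blast minus sham was -0.05 log2 (95% interval -0.89 to 0.79, limma p = 0.888, exact permutation p = 0.875). It was -0.21 with slide row as a block, -0.18 with array weights and -0.0057 with normexp background. The dimmer probe gave 0.33 (95% interval -0.66 to 1.31, exact permutation p = 0.518), with the opposite sign, and it too was lowest in H1 and highest in M3. Over the 8 rats the probes had a Pearson r of 0.86 and a Spearman rho of 0.93.

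Bmp2 (NM_017178), a BMP ligand of the matrix and shaft precursors, was 12.89 in C1, 12.75 in C2 and 11.94 in C3, and 12.44 in M2, 12.28 in M3, 12.41 in H1, 11.47 in XH1 and 12.70 in XH3. XH1 was the one blast rat outside the sham span. Blast minus sham was -0.27 log2 (95% interval -1.04 to 0.50, limma p = 0.434, exact permutation p = 0.446). It was -0.074 without XH1, -0.091 without C1, -0.16 without C2 and -0.56 without C3, and 0.16 with array weights.

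Bmp4 (NM_012827), the BMP ligand of the dermal papilla, was the one gene of the 10 whose level followed pressure at an unadjusted p under 0.05. Among the blast rats it was 12.53 in M2 and 12.63 in M3 at 145 kPa, 12.45 in H1 at 175 kPa, and 11.81 in XH1 and 11.93 in XH3 at 200 kPa. The levels at the 3 pressures did not overlap, with H1 the only rat at 175 kPa. The share of all probes with such an order was not counted. Both rats at 200 kPa lay in row 2 of the slide and H1 in row 1, while M2 lay in row 1 and M3 in row 2. The part of slide row in these levels was not tested. The slope was -0.13 log2 per 10 kPa (SE 0.034, limma p = 0.0187, exact permutation p = 0.0667 over 30 orders of the pressures), and its adjusted p over 30236 probes was 0.9999. Trends at an unadjusted p under 0.05 were found for 2.84% of all probes (860 of 30236), and 0% passed after adjustment. That background count itself moved to 4744 without M2 and to 409 without XH1. Sham rats, left out of the slope, had 12.36 (C1), 11.74 (C2) and 12.31 (C3). They covered the range of the rats at 200 kPa, and blast minus sham was 0.13 log2 (95% interval -0.46 to 0.72, limma p = 0.622, exact permutation p = 0.571). With sham included at 0 kPa the slope was 0.00065 per 10 kPa, with the sign turned. The limma p of the slope was above 0.05 without M3 (slope -0.13), without XH1 (-0.11), without XH3 (-0.13) and with scaling to the 75th percentile (-0.14). Of the 10 slopes 5 were negative and 5 positive. After Bmp4 the next smallest slope p was that of Wnt5a, 0.14 log2 per 10 kPa (limma p = 0.149, exact permutation p = 0.30).

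Fst (NM_012561) encodes follistatin, a secreted inhibitor of activins and of some BMPs. Its level was 10.54 in C1, 6.84 in C2 and 5.68 in C3, and 5.29 in M2, 4.40 in M3, 5.84 in H1, 5.00 in XH1 and 6.09 in XH3. C1 stood far above the other 7 rats, M2, M3 and XH1 lay below every sham rat, and H1 and XH3 lay above C3. The mean was 7.69 ± 2.54 (SD, n = 3) in sham and 5.32 ± 0.67 (SD, n = 5) in blast. The blast mean includes M3, where neither spot was well above background. The difference of -2.36 log2 (SE 1.03, 95% interval -4.77 to 0.05) had a limma p of 0.0534, an adjusted p of 0.9999 and an exact permutation p of 0.0536. Both spots on the C1 array showed the high signal, 2848 and 2915 before normalization, and spots in the other rats gave 12.5 to 81.1. Without C1 the difference was -0.94 log2 (exact permutation p = 0.238), and without C3 it was -3.36 (limma p = 0.0125, exact permutation p = 0.0476, the smallest that 21 ways allow). Other settings that took the limma p under 0.05 were scaling to the 75th percentile (0.0270), leaving out probes not well above background in 3 or more rats (0.0324) and an intensity trend and robust estimation in eBayes, set together (0.0498). The difference was -1.58 log2 with normexp background and -0.89 with array weights. Blast minus sham was -3.12 in row 1 of the slide and -0.52 in row 2.

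C1 exceeded the next rat in Fst by 3.70 log2, or 12.99-fold. Such a gap, 1 rat at least that far above every other, was seen in 133 of 30217 probes (0.440%), and that rat was C1 in 37 of them and C2 in 45. After normalization the red-cell marker Hbb, haemoglobin beta, was lowest in the same rat. Among the 16822 probes well above background on all arrays, C1 was highest in 18.9% and lowest in 17.3%. On its brighter probe Hbb was 10.21 in C1, 13.96 in C2 and 11.64 in C3, and 17.42 in M2, 13.34 in M3, 15.37 in H1, 13.31 in XH1 and 14.43 in XH3. Its blast minus sham difference was 2.84 log2 (limma p = 0.0435, adjusted p = 0.9999, exact permutation p = 0.0893). A second Hbb probe, also well above background on all 8 arrays and lowest in C1 after normalization, gave 3.46 log2 (limma p = 0.0183, adjusted p = 0.9999, exact permutation p = 0.0357). Before normalization the spots of this second probe gave 64.1 and 46.6 in C1 and 48.3 and 54.7 in C3. Those of the brighter probe gave 2321 and 2301 in C1 and 2358 and 2470 in C3. The part of Hbb in the level of Fst was not tested. Other cell type markers, keratins among them, and the other genes of these pathways were not analysed here. The accessions of the 10 genes were given with their symbols and that of Hbb came from the study's primer table. For other genes the table that pairs symbols with accessions was one of Rattus rattus, and 0 of the 26997 distinct probe names matched it.

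Fgf5 (NM_022211), the ligand that ends anagen, was read by 2 probes. The brighter one gave 7.28 in C1, 6.59 in C2 and 7.43 in C3, and 7.64 in M2, 6.70 in M3, 5.73 in H1, 7.35 in XH1 and 7.58 in XH3. H1 lay below all other rats, and M2 and XH3 lay just above the highest sham rat. Blast minus sham was -0.10 log2 (95% interval -1.20 to 0.998, limma p = 0.835, exact permutation p = 0.946). The dimmer probe was well above background in both spots on 1 array and gave 0.10 (exact permutation p = 0.804). Over the 8 rats the 2 Fgf5 probes had a Pearson r of 0.43 and a Spearman rho of 0.74. Fgf7 (NM_022182), also known as keratinocyte growth factor, was not well above background on any of the 8 arrays, so nothing is read from the order of its levels. Its difference was 0.09 log2 (limma p = 0.647, exact permutation p = 0.821). The Fgf7 difference was 0.25 with array weights, 0.22 with scaling to the 75th percentile and 0.0094 with a lower limit of 8.

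**Figure D2:**
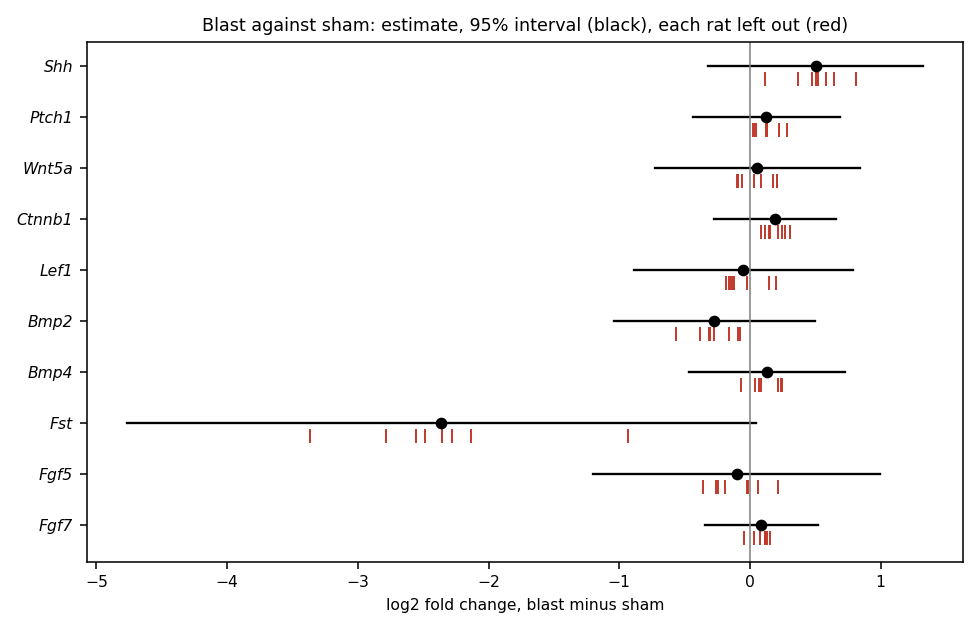
Blast minus sham log2 fold change (horizontal axis) of the 10 genes (vertical axis), with points for the estimates from 3 sham and 5 blast rats, black lines for 95% limma intervals and red ticks for the estimate with each rat left out in turn. All 10 intervals include 0, and that of Fst runs from -4.77 to 0.05 and its left-out estimates run from -3.36 to -0.94.

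Some genes varied together from rat to rat. Of the 10 genes 7 were well above background on all 8 arrays, which gives 21 pairs, and the correlations are a description over 8 rats that share a slide and a normalization. Ctnnb1 and Fgf5 ran opposite to each other, with a Pearson r of -0.94 and a Spearman rho of -0.81, and r was -0.81 without M3 and H1, the rats farthest out in Ctnnb1. H1 had the highest Ctnnb1 and the lowest Fgf5. The gene most like Wnt5a was Fgf5 (r 0.82, rho 0.67, and r 0.71 without M3 and H1). The gene most like Ptch1 was Lef1 (r 0.81, rho 0.57), which rested on M3 and H1, since r was 0.28 without them. Without those rats Ptch1 was closer to Wnt5a (r 0.92, and 0.46 over all 8 rats). Ctnnb1 and Bmp4 had each other as nearest at an r of 0.15, which was -0.86 without M3 and H1 and 0.42 without C2 and XH1, the rats farthest out in Bmp4. Bmp2 had Bmp4 as nearest at 0.10, which was -0.67 without C3 and XH1. Over the 7 genes M3 was highest in 3 and H1 lowest in 3. Among the 16822 probes well above background on all arrays M3 was highest in 23.6% and lowest in 30.1%, and H1 was highest in 10.5% and lowest in 21.8%. The array of M3 had the lowest mean r with the other arrays (0.969) and the most outlier spots (947). In 4 of the 7 the pooled SD between rats was above the median of those 16822 probes, 0.39 log2.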

How the data were processed

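RNA of whisker follicles from 8 rats was read on 1-colour Agilent arrays. Per the file headers, the authors' scanner files hold background-subtracted processed signals in intensity units from Feature Extraction 10.7.1.1. The authors also deposited quantile-normalized log2 values, used as an alternative. Outlier spots were left out, replicate spots were averaged as log2 values, intensities were quantile normalized, and those under 3 were set to 3 before log2. A spot well above background is one the scanner software marks so. Blast was tested against sham with limma 3.58.1 in R 4.3.3, with Benjamini-Hochberg adjustment over 30366 probes, in place of the one-way analysis of variance of the study's methods, run as an alternative. Single genes also had a two-sided exact permutation test, and exact tests of the slopes and of Fst with each rat left out were added after the data were seen. The pressure slope used limma over the 5 blast rats and 30236 probes. All 10 genes were named, each by its probe with the highest mean intensity, with other probes beside it, and for each gene well above background on all arrays the gene with the highest r. The genes and lists were chosen with earlier results of these data known. Alternatives were 75th percentile scaling, no lower limit or one of 8, normexp background (offset 50), outlier spots kept, a filter on dim probes, other priors and array weights, blocks by title number and by slide row, other probes, all 8 rats in the slope, and each rat left out. The scaling to the 75th percentile put the median fold change of all probes at 0.04 log2. The number of arrays limits the precision. The steps were tested on simulated data.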

Additional observations from a re-analysis of the deposited data

Results flagged for a closer look

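For Fgf7 the value of XH3 lay above those of the other 4 blast rats, with a gap to the nearest of 0.897 of the group's range, over the critical value of 0.71. The gene was not well above background on any array, and the spots of XH3 gave 11.4 and 4.92, a difference of 1.21 log2, so nothing is read from this gap. Chance puts about 1 in 20 groups above that critical value, and 12 probes were looked at in this way.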

How the results depend on the processing

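No gene passed after adjustment under any alternative run, and Shh, Ptch1, Ctnnb1 and Fst kept the sign of their fold change in all of them. Probes at an unadjusted p under 0.05 numbered 412 with the filter on dim probes, 1729 with the analysis of variance over 4 pressures, 2246 with array weights, and 657 to 1649 with each rat left out. The filter leaves fewer probes to test, so its count cannot be read as a change in the share called. Probes past the adjusted threshold numbered 132 with that analysis of variance and 0 to 3 with each rat left out. Of the 10 genes 1, Fst, was under an unadjusted 0.05 with 75th percentile scaling, the dim probe filter or eBayes with intensity trend and robust estimation together (count 1 in each), and 0 to 1 were with each rat left out. Probes with a slope at that threshold numbered 409 to 4744 with each blast rat left out, and genes 0 with 75th percentile scaling, 0 with all 8 rats and 0 to 1 with each rat left out. Log2 fold changes turned sign with array weights in Bmp2 (0.16), Bmp4 (-0.13) and Fgf5 (0.046), with the slide row as a block in Wnt5a (-0.023), and on the other probe in Lef1 (0.33) and Fgf5 (0.10). With each rat left out they ran from 0.12 to 0.81 in Shh, 0.022 to 0.28 in Ptch1, 0.087 to 0.31 in Ctnnb1, -0.56 to -0.074 in Bmp2, -3.36 to -0.94 in Fst, -0.10 to 0.20 in Wnt5a, -0.18 to 0.20 in Lef1, -0.068 to 0.25 in Bmp4, -0.36 to 0.22 in Fgf5 and -0.042 to 0.15 in Fgf7. With sham rats in the slope it turned sign in Ptch1 (0.0064), Ctnnb1 (0.0098), Bmp4 (0.00065), Fst (-0.12) and Fgf5 (-0.0033). With each blast rat left out the slope ran from -0.088 to 0.10 in Shh, -0.060 to 0.048 in Ptch1, -0.074 to 0.014 in Ctnnb1, -0.14 to 0.057 in Bmp2, -0.030 to 0.17 in Fgf5 and -0.0018 to 0.10 in Fgf7. The signs of these slopes therefore depend on single rats. The causes were not tested. Fgf7 did not pass the filter on dim probes and has no value there. Title numbers as a replicate block kept every sign and every side of 0.05 among the 10 fold changes. The labels do not say whether those numbers mark pairs. Over the 5 same-numbered pairs the r of deviations from the group means ran from -0.30 to 0.32, with 2 above 0.1. By that r, 2 of 5 blast rats were nearest to the sham rat of their number. With so few sham rats, some shared between pairs, these r cannot decide it. Signal over background limits Shh, Fgf7, the dimmer Fgf5 probe and Fst in M3. Outside C1 and M3 the Fst spots were well above background but dim, at 21.4 to 81.1 before normalization.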
